A study of Homo sapiens with 4 samples.

Results

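Hyaluronan is a long sugar chain of the pericellular matrix, built from glucuronate and N-acetylglucosamine. The genes described here are 9 that make it, cut it or bind it, out of 20686 genes named on the array: UGDH, HAS2 and HAS3 for synthesis, CEMIP2 (also TMEM2), CEMIP (also KIAA1199), HYAL1, HYAL2 and HYAL3 for breakdown, and CD44 as receptor. They were chosen by name, as every probe annotated to these genes, with the HYAL1 probes found through accessions of the authors' table. They have 19 probes in all, of which 9 probes from 7 genes passed the filter on dim signals (a detection p under 0.05 on at least 2 of the 4 arrays, called kept probes below), and CEMIP and HYAL1 had no probe that did.

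Hyaluronan synthases sit in the plasma membrane, take UDP-glucuronate and UDP-N-acetylglucosamine from the cytosol and push the growing chain out of the cell. UGDH supplies the UDP-glucuronate by oxidising UDP-glucose. Long chains are cut at the cell surface and fragments are degraded in lysosomes, and CD44 anchors the chain to the cell and takes part in its uptake. In breast cancer a hyaluronan-rich coat and high CD44 are known features of invasive, mesenchymal-type cells.

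RNA came from MDA-LM2 cells, a lung-colonising derivative of the human triple-negative breast cancer line MDA-MB-231 and so a single cell line with no tissue around it, 48 h after lipofection with siRNA against SOX4 (siSOX4, 2 samples) or control siRNA (siControl, 2 samples). SOX4, a SoxC-group transcription factor, was targeted with 2 siRNAs per the design text, and no label ties the sample numbers to them, so any difference between the siRNAs lies within the siSOX4 spread. Separate cultures are not stated for the samples of either group, and p-values then reflect only their own spread, which may be technical.

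The targeted gene was read by 1 probe. SOX4 had deposited signals of 206 and 193 in siSOX4 samples 1 and 2, against 253 and 239 in siControl samples 1 and 2. The groups did not overlap, and the normalized difference of -0.35 ± 0.19 log2 units (limma's standard error, as after ± throughout) did not pass the test (adjusted p = 0.488, limma). Between 18609 and 20292 of 47323 probes were detected per array, and the log2 difference between the siSOX4 samples had an SD of 0.43 over kept probes, against 0.26 between the controls. All 4 markers of the MDA-MB-231 lineage (VIM, CD44, MSN, CAV1) and all 5 of the lung-colonising derivative were detected on every array. ESR1, PGR and CDH1 were detected on none, GATA3 was not detected on every array, and EPCAM was. Among markers of other cell types, 3 of 4 immune, 2 of 3 endothelial and 0 of 4 fibroblast genes were detected on no array, while CD14, PECAM1 and COL1A1 were detected on every array. The deposited signals summed over the 4 fibroblast genes were 601 and 678 in siSOX4 samples, against 492 and 539 in siControl samples. By gene, the groups overlapped for COL1A1, COL1A2 and COL3A1 and not for PDGFRB. The 3 endothelial genes summed to 239.5 and 228.5 in siSOX4 samples, against 201 and 212 in siControl samples. That sum includes CDH5 and VWF, which were detected on no array, and so holds background signal. The 4 immune genes summed to 346.9 and 290.5 in siSOX4 samples, against 316.7 and 296.5 in siControl samples, and overlapped. The part of such signals in the results below was not tested.

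Among the kept hyaluronan probes, the 2 with a negative difference after siSOX4 were those of CEMIP2 and UGDH. Neither passed the test (adjusted p = 0.151 and 0.175, limma). The RefSeq sequence before the starts of these 2 genes is shown because both differed in the same direction. Each line holds the 250 bases before the annotated start, 5′ to 3′ on the gene's strand, in GRCh38.p14, with matches to the GC box GGGCGG on either strand in capitals. CEMIP2 lies on the minus strand at chr9:71768514-71768763 and UGDH on the minus strand at chr4:39527440-39527689.
CEMIP2: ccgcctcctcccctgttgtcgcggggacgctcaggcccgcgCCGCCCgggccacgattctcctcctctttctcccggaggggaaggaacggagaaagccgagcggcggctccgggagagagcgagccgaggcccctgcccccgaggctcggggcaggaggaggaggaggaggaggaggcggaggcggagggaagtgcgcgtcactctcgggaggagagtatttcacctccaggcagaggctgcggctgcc
UGDH: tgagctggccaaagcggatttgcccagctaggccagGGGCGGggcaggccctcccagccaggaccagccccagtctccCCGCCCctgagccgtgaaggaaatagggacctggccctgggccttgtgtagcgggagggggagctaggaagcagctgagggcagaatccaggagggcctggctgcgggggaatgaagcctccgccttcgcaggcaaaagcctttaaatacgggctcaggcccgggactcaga
CEMIP2 held 1 GC box and UGDH held 2, and 42.6% of 35116 promoter windows of this length held at least 1. The SOX-type letters ACAAAG and ACAATG, searched on both strands, occurred in neither window, and 21.2% of all windows held at least 1 of them. GC content was 71.6% for CEMIP2 and 66.0% for UGDH, against a median of 58.0% over all windows. Among other hyaluronan genes searched, CEMIP, HYAL1, HYAL3, HAS3 and CD44 also held a GC box, and HYAL2 held none. ACAAAG occurred before HYAL1 and HAS3, and neither SOX-type motif before CEMIP, HYAL2, HYAL3 and CD44. GC content of those other windows ran from 62.4% (CD44) to 74.4% (CEMIP). These traits are thus not particular to CEMIP2 and UGDH. A match or its absence describes only these letters in the window searched.

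No hyaluronan probe passed the threshold of adjusted p under 0.05 in limma. Of all 20118 kept probes, 0% passed (0 probes, while 2609 had an unadjusted p under 0.05). At an unadjusted p under 0.05, 2 of the 9 hyaluronan probes were lower, CEMIP2 and UGDH, as were 6.31% of kept probes, and 0 of the 9 were higher, as were 6.66% of kept probes. Both siSOX4 samples lay below both controls for 2 of the 9 probes, CEMIP2 and UGDH, where 23.3% of kept probes did. They lay above both controls for 2 others, HYAL2 and HAS3, where 22.2% of kept probes did. HAS3 was kept only because both siSOX4 samples detected it, which largely set its direction. Among the 8 hyaluronan probes detected in both groups, 1 lay above both controls, where 20.2% of such probes did. Together 4 of the 9 did not overlap, where 45.5% of kept probes did not. The shares without overlap are near the background and say nothing about hyaluronan genes. Whether the share of hyaluronan probes at an unadjusted p under 0.05 differs from its background was not tested. CD44 counts 3 times among the 9 probes, and by the brightest kept probe of each gene the median difference was 0.11 log2 units over 7 genes, or 0.060 over the 6 without HAS3, against -0.02 over all 11803 genes measured.

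**Figure D1:**
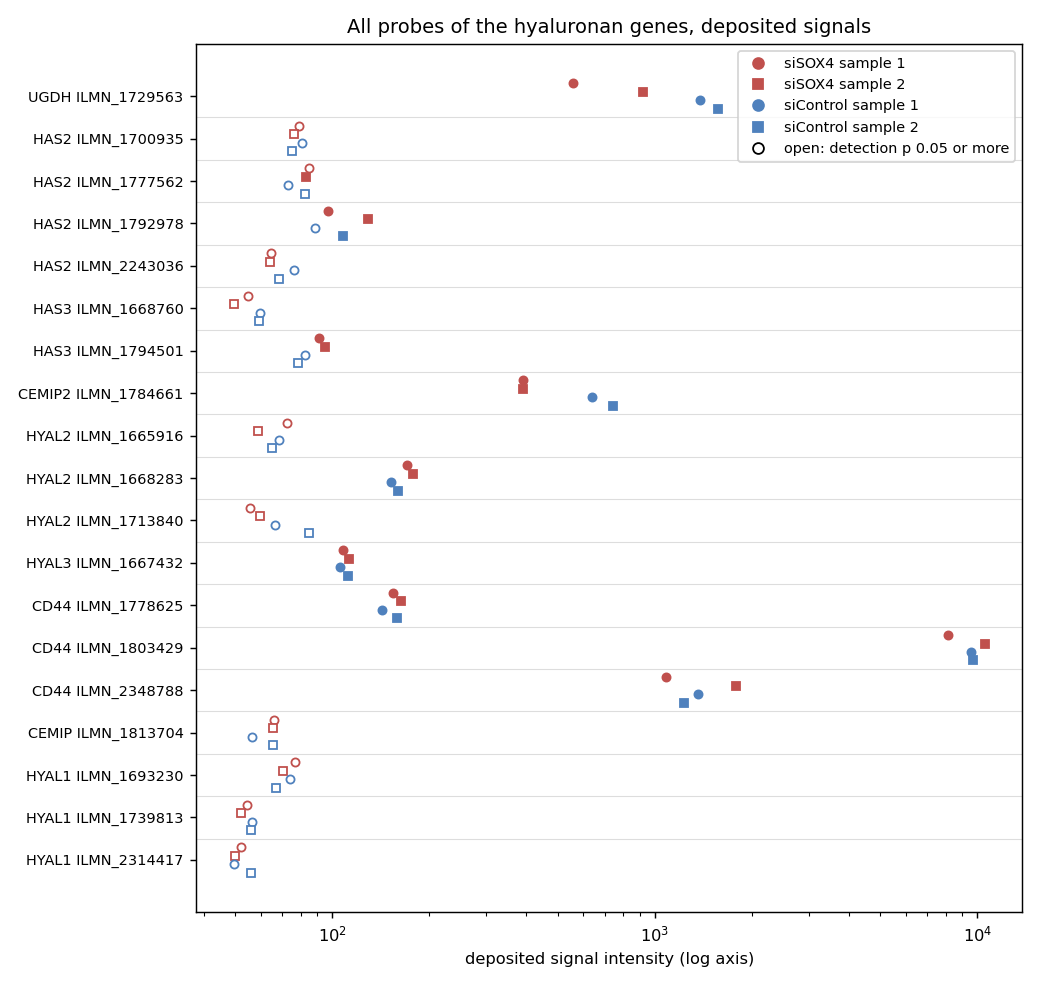
Deposited signal intensity (log axis, no unit) of all 19 probes of the 9 genes on each array, siSOX4 in red above siControl in blue, with circles for sample 1 and squares for sample 2. Open symbols have a detection p of 0.05 or more. The CEMIP2 and UGDH signals of both siSOX4 samples lie left of both controls, and the probes of CEMIP and HYAL1 are open throughout.

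Hyaluronan starts from UDP-glucuronate, and UGDH, the enzyme that makes it, had the largest difference among the 9 kept probes. UGDH signals were 559 and 920 in siSOX4 samples 1 and 2, against 1384 and 1570 in siControl samples 1 and 2. Both siSOX4 samples were below both controls, and sample 1 was the lowest of the 4. In such bulk samples fewer expressing cells and less RNA per cell cannot be told apart. After normalization the difference was -1.03 ± 0.24 log2 units (SE, n = 2 arrays per group), which is 2.04-fold lower with a 95% interval from 1.39-fold to 3.002-fold lower. It did not pass over all kept probes (adjusted p = 0.175, limma), and 100 of 20118 kept probes had a more negative difference. UGDH passed in the fit with the replicate number as a block (-1.03, adjusted p = 0.0364, limma), where 186 of 20118 kept probes passed. Samples of the 2 groups share these numbers only as labels, so that pass is not separate support. The siSOX4 samples were 0.71 log2 units apart, with -1.39 in sample 1 and -0.68 in sample 2 against the control mean, while the controls were 0.22 apart. In the authors' deposited table the UGDH ratio of siControl to siSOX4 was 1.95.

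The synthase genes HAS2 and HAS3, whose proteins polymerise the chain, were near the detection limit. HAS2 has 4 probes, and only ILMN_1792978 passed the filter. Its signals were 97.0 and 129 in siSOX4 samples 1 and 2, against 88.7 and 108 in siControl samples 1 and 2, where siControl sample 1 was not detected. The groups overlapped, since siSOX4 sample 1 lay between the controls. HAS2 differed between the groups by 0.41 ± 0.34 log2 units (adjusted p = 0.655, limma), namely -0.03 in siSOX4 sample 1 and 0.85 in sample 2. Without siSOX4 sample 1 that probe stood at 0.85 log2 units, and without siSOX4 sample 2 the sign turned to -0.03. Without siControl sample 1 it was 0.077 and without siControl sample 2 it was 0.74. Each of those fits leaves 1 group with a single array, whose spread is not measured, so their calls are not read. The HAS2 value depended on siSOX4 sample 2 and on siControl sample 1. It was 0.22 without background correction, 0.21 with normexp fitted without control statistics and 0.22 with the series matrix values. Over the alternatives that used all 4 arrays and kept the probe, its adjusted p ran from 0.434 to 0.777 (limma). Of the other 3 HAS2 probes, 2 were detected on no array, and ILMN_1777562 was detected only in siSOX4 sample 2 (84.8 and 82.9 in siSOX4 samples, against 73.1 and 82.4 in siControl samples).

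HAS3 was read by 2 probes. ILMN_1794501 had signals of 91.03 and 94.97 in siSOX4 samples 1 and 2, against 82.2 and 78.4 in siControl samples 1 and 2. It was detected in both siSOX4 samples and in neither control, and so passed the filter only through the group where it is high. The measured means were 5.39 log2 units in siSOX4 samples and 4.95 in siControl samples, a difference of 0.44 ± 0.20 that did not pass (adjusted p = 0.414, limma). The HAS3 difference was 0.23 without background correction, 0.22 with normexp fitted without control statistics and 0.23 with the series matrix values, and 0.29 without siSOX4 sample 2. For a bound, each control was set at its own signal or at the lowest signal among detected probes of its array, whichever was higher. The measured HAS3 mean of the siSOX4 samples was then at least 1.15-fold above the controls, or at least 1.07-fold without background correction. This bound takes no account of sampling error. The 95% interval of the HAS3 difference, 0.980-fold to 1.88-fold, includes no change. The second HAS3 probe, ILMN_1668760, was detected on no array and had its 2 lower signals in the siSOX4 samples (54.8 and 49.7, against 60.0 and 59.2 in siControl samples).

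**Figure D2:**
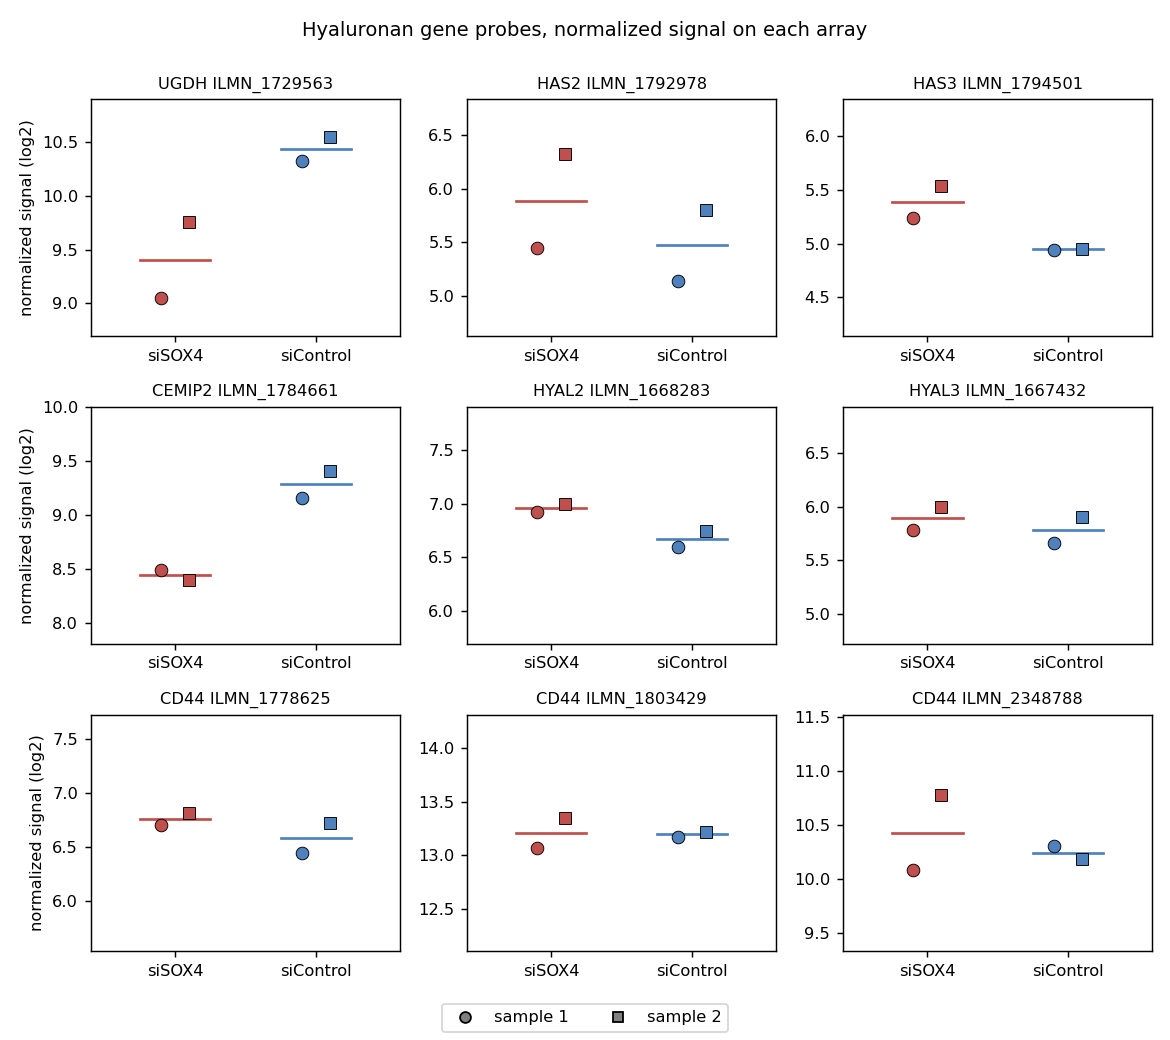
Normalized log2 signal of the 9 kept probes on each array, siSOX4 in red left of siControl in blue, with circles for sample 1, squares for sample 2 and a line at each group's mean; each panel spans the same number of log2 units. UGDH and CEMIP2 show siSOX4 means 1.03 and 0.84 log2 units below the controls, while the 3 CD44 panels overlap.

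On the breakdown side, CEMIP2, a transmembrane protein reported to cut long hyaluronan chains at the cell surface, had a lower signal. Its signals were 390.9 and 391.2 in siSOX4 samples 1 and 2, against 641 and 744 in siControl samples 1 and 2. The siSOX4 samples were nearly equal and lay below both controls. The difference was -0.84 ± 0.18 log2 units, or 1.79-fold lower with a 95% interval from 1.35-fold to 2.38-fold lower, and it did not pass over all kept probes (adjusted p = 0.151, limma). A more negative difference was found for 223 of 20118 kept probes, and CEMIP2 ranked 192 by p. Normalized, the siSOX4 samples were 0.09 log2 units apart and the controls 0.25 apart, so that for CEMIP2 the spread lay mainly in the controls and for UGDH mainly in the siSOX4 samples. The authors' deposited table gives a CEMIP2 ratio of siControl to siSOX4 of 1.75. CEMIP2 has been reported as a SOX4 target, a report that may rest on these same arrays, so its place here is not independent support.

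The calls of CEMIP2 and UGDH depended on which arrays were kept, and that of UGDH also on the replicate block given above. Without siSOX4 sample 1, CEMIP2 passed at -0.89 log2 units (adjusted p = 1.45e-05, limma) and UGDH at -0.68 (adjusted p = 0.000197). Without siSOX4 sample 2, CEMIP2 passed at -0.80 (adjusted p = 4.48e-05) and UGDH at -1.39 (adjusted p = 2.94e-13). In those fits the lone siSOX4 sample is assumed to vary like the controls, and 2042 and 4221 kept probes passed in all. Without siControl sample 1 or 2, CEMIP2 was -0.97 and -0.72 (adjusted p = 0.999 and 0.963) and UGDH -1.14 and -0.92 (adjusted p = 0.999 and 0.940), so the direction stayed and neither passed. Over all 12 alternatives the adjusted p ran from 1.45e-05 to 0.999 for CEMIP2 and from 2.94e-13 to 0.999 for UGDH.

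CEMIP, the secreted relative of CEMIP2 that also degrades hyaluronan, was not detected on any array. Its 1 probe gave 66.0 and 65.7 in siSOX4 samples 1 and 2, against 56.4 and 65.3 in siControl samples 1 and 2, with detection p-values from 0.471 to 0.843. No level or fold is given for it.

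The hyaluronidase genes HYAL1, HYAL2 and HYAL3 neighbour each other on chromosome 3. HYAL2 encodes a hyaluronidase anchored to the cell surface. Its probe ILMN_1668283 had signals of 170 and 179 in siSOX4 samples 1 and 2, against 153 and 160 in siControl samples 1 and 2. Both siSOX4 samples were above both controls, and the difference of 0.28 ± 0.20 log2 units (1.22-fold, 95% interval 0.885 to 1.67) did not pass (adjusted p = 0.589, limma). A second HYAL2 probe with the same annotated accession, ILMN_1713840, was lower in the siSOX4 samples (55.7 and 59.9, against 66.7 and 84.5 in siControl samples) but was detected on no array, as was the third, ILMN_1665916.

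HYAL3, whose protein has little hyaluronidase activity of its own, had signals of 108 and 113 in siSOX4 samples 1 and 2, against 106 and 112 in siControl samples 1 and 2. The groups overlapped (0.11 ± 0.21 log2 units, adjusted p = 0.877, limma). The 95% interval of the measured HYAL3 signal ran from 0.766-fold to 1.51-fold. This probe is dim, with a control mean of 5.78 log2 units. The lowest detected values were 5.21 and 5.16 in siControl samples 1 and 2, so a halving would fall below detection. Without background correction the difference was 0.055. The interval therefore does not exclude a halving of HYAL3 RNA.

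HYAL1, the main hyaluronidase of lysosomes and plasma, is absent from the platform annotation used here, but the authors' deposited table lists 3 of its accessions. Each of their ratios equals that of exactly 1 probe (relative tolerance 1e-08), and by this route 99.9% of 27457 probes that also had an annotated symbol received the same symbol. The 3 HYAL1 probes found this way were detected on no array. Their signals ran from 50.1 to 76.5 in siSOX4 samples, against 49.6 to 74.2 in siControl samples, with a lowest detection p of 0.288. At the sensitivity of these arrays HYAL1 was not detectable in either group.

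**Figure D3:**
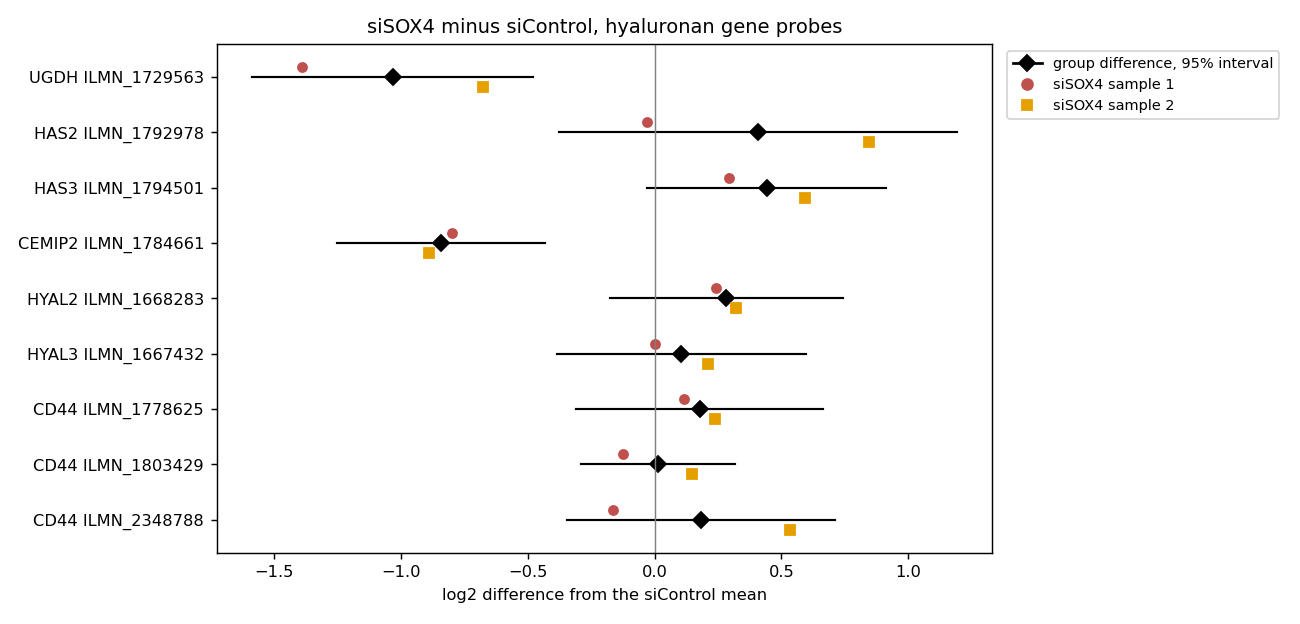
Log2 difference from the siControl mean (x axis) for each of the 9 kept probes, with the group difference and its 95% limma interval in black, siSOX4 sample 1 as red circles and siSOX4 sample 2 as orange squares. The intervals of UGDH and CEMIP2 lie below 0 and the other 7 include 0, before any adjustment.

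CD44, the main hyaluronan receptor, was read by 3 probes annotated to different transcript accessions, and all were detected on every array. The brightest, ILMN_1803429, had signals of 8144 and 10565 in siSOX4 samples 1 and 2, against 9559 and 9726 in siControl samples 1 and 2. The controls lay between the siSOX4 samples. It differed by 0.01 ± 0.13 log2 units (adjusted p = 0.977, limma), and the 95% interval, 0.818-fold to 1.25-fold, is the narrowest among the 9 probes. A change as large as the CEMIP2 estimate lies outside that interval, although the difference between CD44 and CEMIP2 was not itself tested.

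The second CD44 probe, ILMN_2348788, split the siSOX4 samples. Its signals were 1083 and 1790 in siSOX4 samples 1 and 2, against 1362 and 1236 in siControl samples 1 and 2. Sample 1 was below both controls and sample 2 above both, at -0.16 and 0.53 log2 units from the control mean, and the group difference was 0.18 ± 0.23 (adjusted p = 0.783, limma). Without siSOX4 sample 1 this probe passed at 0.53 (adjusted p = 0.00371, limma), and without siSOX4 sample 2 it stood at -0.16 (adjusted p = 0.466), with a range from 0.00371 to 0.999 over its alternatives. The third probe, ILMN_1778625, had 154 and 163 in siSOX4 samples 1 and 2, against 143 and 158 in siControl samples 1 and 2, and the groups overlapped (0.18 ± 0.21, adjusted p = 0.769, limma). Without siControl sample 1 that probe stood at 0.036 and without siControl sample 2 at 0.32. The transcripts that each CD44 probe binds were not checked here, so the spread between probes cannot be read as a change in splicing.

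Of the other genes that supply UDP-sugars, 13 were listed, 12 were measured and 0 passed. A positive difference was found for 9 of the 12 and a negative one for 3, where 5654 of all 11803 genes measured were positive. The median was 0.16 log2 units, against -0.02 over all 11803 genes. Whether this list differs from all genes was not tested. UGP2, which makes the UDP-glucose that UGDH uses, had signals of 1360 and 1190 in siSOX4 samples, against 700 and 893 in siControl samples. Both siSOX4 samples were above both controls, by 0.79 ± 0.19 log2 units (adjusted p = 0.189, limma), and its 2 other kept probes gave 0.57 and 0.89. SLC35D2, a Golgi transporter of nucleotide sugars, differed by -0.66 ± 0.19, the sugar phosphate mutase gene PGM2 by 0.54 ± 0.20, and UAP1, which makes UDP-N-acetylglucosamine, by 0.39 ± 0.18. Beyond hyaluronan, UDP-glucuronate also goes into other glycosaminoglycans, UDP-xylose and glucuronides. A list of 20 genes of those pathways, some of whose enzymes use other UDP-sugars, had a median of -0.11, with 6 of 16 measured genes positive and 10 negative, and 0 passed. UXS1 was kept only through the siSOX4 samples, which largely set its positive direction. Among the 15 genes detected in both groups, 5 were positive and 10 negative, where 5406 of 11454 such genes were positive. This list was not tested against all genes either. In this list the chondroitin synthase gene CHSY3 differed by 0.80 ± 0.22, or by 0.51 without background correction. The heparan sulfate polymerase gene EXT2 differed by -0.53 ± 0.18, and its other kept probes gave -0.53 and -0.16. The chondroitin polymerising genes CHPF and CHPF2 differed by 0.49 ± 0.33 and -0.32 ± 0.20. The CHPF groups overlapped, with 0.005 in siSOX4 sample 1 and 0.97 in sample 2 against the control mean.

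Of 26 other hyaluronan-binding and matrix genes, 12 were measured and 0 passed. VCAN and PTX3 were kept only through the siSOX4 samples. Among the 10 genes detected in both groups, 6 differences were positive and 4 negative, with a median of 0.065 log2 units. Of all 11454 such genes, 5406 were positive and 6048 negative, with a median of -0.02. Whether this list differs from them was not tested. LAYN, which encodes the membrane receptor layilin, had signals of 249 and 253 in siSOX4 samples, against 172 and 190 in siControl samples. Both siSOX4 samples were above both controls (0.68 ± 0.20 log2 units, adjusted p = 0.243, limma). Without background correction the LAYN difference was 0.51. HMMR, a hyaluronan-binding protein of the mitotic spindle, stood 1.18 above and 0.17 below the control mean in siSOX4 samples 1 and 2 (0.51 ± 0.41). The other kept HMMR probe gave 0.29. VCAN (versican) and PTX3 (pentraxin) were detected in both siSOX4 samples and in neither control, so their direction was largely set by the filter (adjusted p = 0.492 and 0.555, limma). By the bound used for HAS3, their measured siSOX4 means were at least 1.05-fold and 1.14-fold above the controls. Without background correction these bounds were 1.02-fold and 1.06-fold. Their 95% intervals, 0.931-fold to 1.81-fold and 0.889-fold to 1.85-fold, include no change.

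Of the CD44 partners and processing genes, 11 of 18 were measured and 0 passed, with 3 positive, 8 negative and a median of -0.13. Of all 11803 genes measured, 5654 were positive and 6149 negative, with a median of -0.02, and 0 passed. Whether this list differs from all genes was not tested. RDX, the radixin that links CD44 to actin, had signals of 659 and 1055 in siSOX4 samples, against 488 and 554 in siControl samples (0.81 ± 0.24 log2 units, adjusted p = 0.245, limma). ADAM17, a protease that sheds cell-surface proteins, had signals of 162 and 163 in siSOX4 samples, against 253 and 225 in siControl samples (-0.70 ± 0.19, adjusted p = 0.226), and its 2 other kept probes gave -0.62 and -0.54. SPP1, the CD44 ligand osteopontin, differed by -0.65 ± 0.22 and ERBB2 by -0.34 ± 0.28. Without background correction the differences were 0.75 for RDX, -0.51 for ADAM17, -0.35 for the dim SPP1 probe and -0.26 for ERBB2. The ERBB2 groups overlapped, with -0.76 in siSOX4 sample 1 and 0.08 in sample 2 against the control mean. Among other synthases, hyaluronidases and lysosomal exoglycosidases, 0 passed; GUSB differed by -0.21 ± 0.24 and HEXA by -0.01 ± 0.23, and HAS1, HYAL4 and SPAM1 were not kept.

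**Figure D4:**
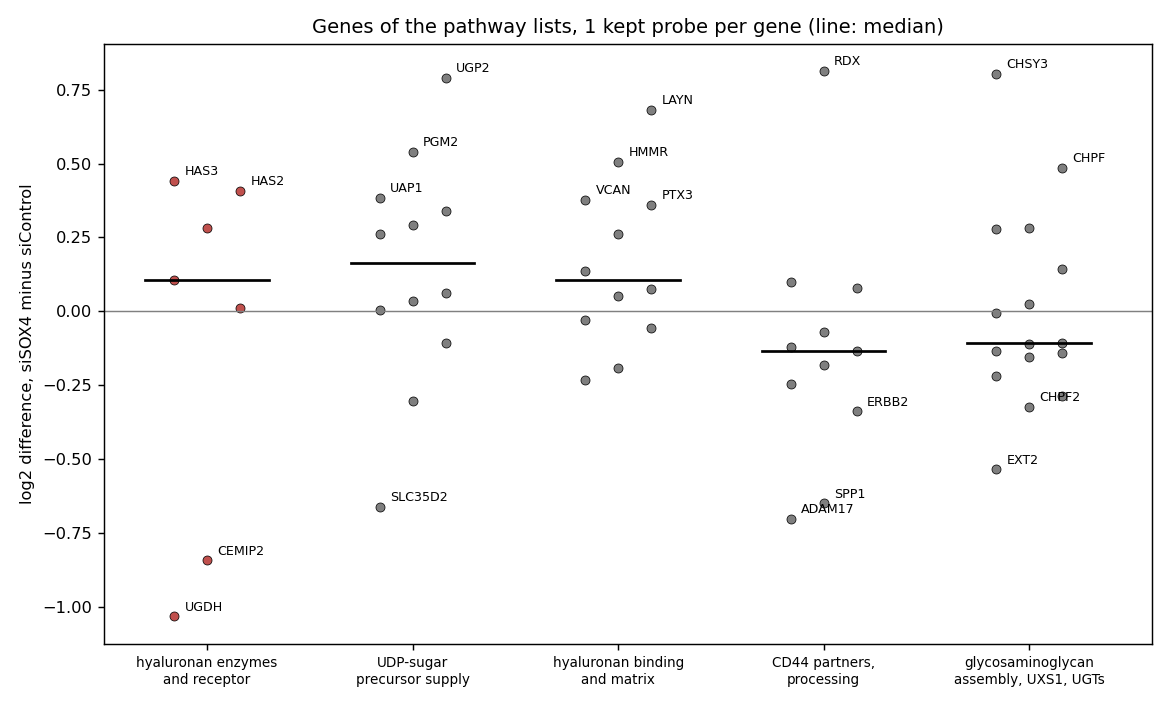
Log2 difference, siSOX4 minus siControl, of each measured gene by its brightest kept probe, for the hyaluronan enzymes and receptor in red and the 4 larger pathway lists in grey, with a line at each median; the up to 4 genes of largest difference per list are labelled. UGDH and CEMIP2 have the lowest values shown, while the medians lie between -0.13 and 0.16; HAS3, VCAN, PTX3 and UXS1 were detected in siSOX4 samples and in neither control.

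The profiles of CEMIP2 and UGDH over the 4 arrays were set beside those of other genes. Centred on the control mean, CEMIP2 stood at -0.80 and -0.89 in siSOX4 samples 1 and 2 and at -0.13 and 0.13 in siControl samples 1 and 2. UGDH stood at -1.39 and -0.68 in siSOX4 samples and at -0.11 and 0.11 in siControl samples. Of 11803 genes, the profiles nearest to CEMIP2 by root mean square distance were those of SIPA1L2 (0.03 log2 units), NPL (0.05) and ENDOV (0.07). Those nearest to UGDH were RGS17 (0.06), TSKU (0.07) and the glucose transporter gene SLC2A3 (0.07). With 4 arrays, nearness is a description only.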

How the data were processed

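Total RNA of 4 samples was labelled with biotin and hybridised to Illumina expression BeadChips, per the labels' protocols. Per the file headers, the deposited table of 47323 probes gives intensities and detection p-values, 1 column of each per array. No intensity is at or below 0. Array medians differ (76.6 to 82.4), so the intensities are not scaled to a common median, and scaling to another statistic was not checked. The 4 detection columns carry no array name. Each never increases with the intensity of 1 array and does with those of the other arrays, which tied them. The deposited series matrix holds the ratio of each intensity to its array's median, found by recomputing it. The authors' deposited fold table holds a ratio of siControl to siSOX4 means per accession. The scanner software and any slide or scan batch are not given in the sources used here, so no batch could be fitted.

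Intensities were corrected and normalized with limma 3.58.1 in R 4.3.3 (normexp with negative-control statistics inferred from detection p-values, offset 16, quantile normalization, log2). Probes with a detection p under 0.05 on at least 2 of 4 arrays were kept (20118). siSOX4 was compared with siControl by lmFit and eBayes with a trend, two-sided, Benjamini-Hochberg adjusted over all kept probes. Values after ± are limma's standard errors. The number of arrays limits precision. Symbols came from the platform annotation (30113 probes with 1 symbol, 8 with several, 17202 not listed) and, for 1064 unlisted probes, from accessions of the authors' table looked up in RefSeq. Genes of the lists are given by their kept probe of highest mean signal. A gene's probe may share sequence with relatives. The fit was run on simulated arrays only to check that it recovers known differences. The simulation gave both groups the same spread, so it does not measure error rates for these arrays.

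The genes, lists and tests were chosen with earlier results of these data known. Named are all hyaluronan probes, SOX4, up to 4 genes of largest difference per list and the 3 nearest profiles of CEMIP2 and of UGDH; 1 gene of a list is not reported here. Alternatives changed the background correction, normalization, filter, variance model, replicate block and arrays used.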

Additional observations from a re-analysis of the deposited data

How the results depend on the processing

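Of 106 values of single hyaluronan probes over the alternatives, 92 kept their direction and stayed short of the threshold, 7 kept their direction and passed, and 7 reversed. CEMIP2 and UGDH kept their direction throughout, from -0.97 to -0.72 and from -1.39 to -0.68 log2 units. Over the whole array 0 probes passed, against 2 with the deposited series matrix values and 105 with no filter on dim probes, and none of these was a hyaluronan probe; the cause was not tested. The CD44 probe ILMN_1803429 reversed to -0.030 with median scaling and to -0.034 with the series matrix values. Leaving out 1 array in turn gave -0.12 to 0.15 for that probe, -0.16 to 0.53 for the CD44 probe ILMN_2348788, -0.029 to 0.85 for HAS2 and -0.017 to 0.23 for HYAL3, the lowest values without siSOX4 sample 2 except that of HYAL3, without siControl sample 1; the causes were not tested. Without background correction, with normexp fitted without control statistics and with the series matrix values, the differences of dim probes were smaller than 0.28 for HYAL2, at 0.18 to 0.19, smaller than 0.18 for the CD44 probe ILMN_1778625, at 0.099 to 0.12, and smaller than 0.11 for HYAL3, at 0.042 to 0.055, as for HAS2 and HAS3. Leaving out 1 array left 0 to 4221 kept probes and 0 to 4 hyaluronan probes past the threshold. The highest count of kept probes came without siSOX4 sample 2, and that of hyaluronan probes without siSOX4 sample 1. The ends of these ranges therefore do not pair. In each such fit 1 group has a single array, whose spread is not measured. Replicate numbers are shared only as numbers: over kept probes, same-numbered samples deviated from their group means with a correlation of 0.11. With the replicate block 186 kept probes passed and 1 hyaluronan probe, UGDH at -1.03 (adjusted p = 0.0364, limma); it changed no other hyaluronan call. Signal over background limits HAS2, HAS3, CEMIP and HYAL1.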
